A study of Mus musculus with 8 samples.

Results

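The phagocyte NADPH oxidase is described here through 5 of its subunit genes: Cybb and Cyba, which encode the membrane chains, Ncf1 and Ncf4, which encode cytosolic regulators, and Rac2, which encodes the GTPase. They were chosen by name and were looked up by Entrez gene ID. All 5 were among the 12830 genes of the deposited tables, and all 5 passed the low count filter. RNA was sequenced from AML410, a transplanted acute myeloid leukaemia of C57BL/6 mice with a monosomal karyotype that is p53-/- and carries a short hairpin RNA (shRNA) against PU.1. The hairpin is linked to green fluorescent protein (GFP) and is shut off by doxycycline (Dox), so that endogenous PU.1, the product of Spi1, can return. GFP+ bone marrow cells were sorted from untreated mice (GFP high gate) and from mice on Dox for 2 days (GFP high to mid), 4 days (GFP mid) or 6 days (GFP low). All 4 groups share the p53 loss and the hairpin, the gate changes with the day so that time and gate cannot be told apart, and AML410 is 1 leukaemia. Each group held 2 libraries, named as technical replicates by the titles and as duplicate mice by the design text, so a p-value here reflects no more than the spread of these libraries, possibly a technical one.

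The oxidase of neutrophils and macrophages moves electrons from cytosolic NADPH across the phagosome membrane to oxygen and so makes superoxide for killing microbes. Its catalytic core, flavocytochrome b558, is a heterodimer of gp91phox (Cybb, also called Nox2) and p22phox (Cyba), and each chain stabilises the other. On activation cytosolic subunits, p47phox (Ncf1) and p40phox (Ncf4) among them, move to the membrane together with a GTP-bound Rac, of which Rac2 is the form restricted to blood cells. Loss of a core subunit causes chronic granulomatous disease in humans. PU.1 is a known activator of the human CYBB, NCF1 and NCF4 genes.

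The deposited libraries held 9262047 to 11213292 counts, and values below are counts scaled to library size (CPM, with TMM factors that correct for library composition). In the test across 12330 genes (edgeR quasi-likelihood test, Benjamini-Hochberg adjusted p under 0.05), 6.13% of genes were called at day 2 against untreated cells (4.18% higher and 1.95% lower), 48% at day 4 (26.1% higher and 22% lower) and 63.6% at day 6 (32% higher and 31.6% lower). Between any of the 4 groups 65.1% of genes were called, and so were the 5 subunits (edgeR adjusted p from 5.47e-09 for Cybb to 7.3e-07 for Ncf1). Scaling by library totals alone lowered the median of all genes by 0.17, 0.27 and 0.47 on the log2 scale at days 2, 4 and 6. At day 6 that scaling gave 2078 genes higher and 6647 lower, where TMM gave 3942 higher and 3897 lower. In bulk RNA, fewer cells of a type and less RNA per cell cannot be told apart.

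Promoter windows from RefSeq (GRCm38.p6, 250 bases before to 50 bases after the annotated start) were at hand for 3 of the 5 genes, Cybb, Cyba and Ncf1. Those of Cybb and Ncf1 are shown because, of the 3, their windows held matches to motifs among the 4 that were searched on both strands. The motifs were the PU.1 core GAGGAA, the longer ETS form AGGAAGT, the C/EBP form TTNNGCAA and the interferon regulatory factor (IRF) form, which is GAAA, 2 bases of any kind and GAAA again. Capitals mark the matches, and the sequences run 5′ to 3′ along the gene, which is on the minus strand of the chromosome in both cases.
Cybb, chrX:9469275-9469574: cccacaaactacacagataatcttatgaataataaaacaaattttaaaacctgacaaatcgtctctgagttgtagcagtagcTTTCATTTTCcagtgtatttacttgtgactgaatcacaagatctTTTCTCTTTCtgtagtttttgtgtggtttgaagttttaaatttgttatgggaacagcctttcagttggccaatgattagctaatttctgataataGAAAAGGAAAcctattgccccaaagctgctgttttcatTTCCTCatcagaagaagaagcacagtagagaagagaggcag
Ncf1, chr5:134229576-134229875: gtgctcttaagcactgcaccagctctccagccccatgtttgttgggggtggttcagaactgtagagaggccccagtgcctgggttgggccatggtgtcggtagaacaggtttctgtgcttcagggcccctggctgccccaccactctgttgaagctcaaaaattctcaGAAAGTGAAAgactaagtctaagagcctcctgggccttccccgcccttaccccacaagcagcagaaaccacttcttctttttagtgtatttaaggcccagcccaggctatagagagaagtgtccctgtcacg

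The Cybb window held 3 matches to the IRF form, ending 159, 115 and 20 bases before the start. Those ending at 159 and 115 were on the opposite strand. So was 1 match to the PU.1 core, at bases 10 to 15 counted from the start. The Ncf1 window held 1 IRF match, ending 73 bases before the start, and no match to the others. The Cyba window held no match to the 4 forms. No 2 matches overlapped. The Cybb window lies inside the span given for the gene (9435252 to 9487766), so the start used is not the upstream end of that span. Bases around that upstream end were not searched. Of 32851 windows of the same length in the RefSeq table, 28.3% held the PU.1 core, 9.35% the longer ETS form, 10.8% the C/EBP form and 3.44% the IRF form. A match describes the letters and does not show binding.

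Among the membrane chains Cybb, the electron-carrying subunit (gene 13058, chromosome X, 9435252 to 9487766, GRCm38), rose at every time on Dox. It stood at 755 and 613 CPM in the untreated libraries, 1031 and 1058 CPM at day 2, 2782 and 2939 CPM at day 4 and 4890.5 and 5128 CPM at day 6. No library of a later group fell within the range of an earlier group. For this and the other subunits such an order is a description, since its share among all genes was not counted. The log2 fold change over untreated was 0.61 at day 2 (SE 0.11, edgeR adjusted p = 0.00827), 2.06 at day 4 (SE 0.11, edgeR adjusted p = 5.73e-08) and 2.87 at day 6 (SE 0.12, edgeR adjusted p = 2.96e-09). The last equals a 7.33-fold rise. Both successive steps passed as well, with a log2 fold change of 1.45 at day 4 over day 2 (edgeR adjusted p = 1.41e-06) and of 0.81 at day 6 over day 4 (edgeR adjusted p = 0.00031).

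Cyba, whose product anchors and stabilises gp91phox (gene 13057, chromosome 8, 122424771 to 122432940), stood at 259 and 207 CPM in untreated cells, 332 and 325 CPM at day 2, 582 and 601 CPM at day 4 and 769 and 815 CPM at day 6. The groups did not overlap and the levels rose in order of time. Over untreated, the log2 fold change was 0.50 at day 2 (SE 0.10, edgeR adjusted p = 0.016), 1.34 at day 4 (SE 0.10, edgeR adjusted p = 7.66e-07) and 1.77 at day 6 (SE 0.10, edgeR adjusted p = 4.68e-08), the last a 3.40-fold rise. The step from day 4 was the smallest of the 5 genes, 0.42 at day 6 over day 4 (edgeR adjusted p = 0.00799), and it was not called without day 4 replicate 1 (0.40, edgeR adjusted p = 0.0702) or without day 6 replicate 2 (0.39, edgeR adjusted p = 0.0789). GENCODE M21 places the predicted gene Gm20388 over 8155 bases of Cyba on the other strand. No source used here states strandedness, so reads of the pair could not be separated.

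Of the cytosolic regulators Ncf1, the organiser that docks on p22phox (gene 17969, chromosome 5, 134220053 to 134229628), stood at 539.9 and 449 CPM in untreated cells, 682 and 693 CPM at day 2, 975 and 1019 CPM at day 4 and 1322 and 1442 CPM at day 6. Again no library crossed into the range of another day. Ncf1 rose by 0.48 at day 2 (SE 0.10, edgeR adjusted p = 0.0182), 1.01 at day 4 (SE 0.10, edgeR adjusted p = 7.26e-06) and 1.48 at day 6 (SE 0.10, edgeR adjusted p = 1.72e-07) on the log2 scale, the last a 2.80-fold rise. Its day 6 step over day 4 was 0.47 (edgeR adjusted p = 0.00432) and was not called without day 4 replicate 1 (0.44, edgeR adjusted p = 0.052) or day 6 replicate 2 (0.42, edgeR adjusted p = 0.0616). GENCODE M21 lists Gtf2ird2 over 4303 bases of Ncf1 on the other strand. That gene had only 75 to 190 counts per library, against 5351 to 13340 for Ncf1.

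Ncf4, whose product binds a phosphoinositide of the phagosome (gene 17972, chromosome 15, 78244164 to 78262582), had the lowest level of the 5 per kilobase in all 4 groups. It stood at 158 and 138 CPM in untreated cells, 192 and 182 CPM at day 2, 341 and 385 CPM at day 4 and 606 and 656 CPM at day 6. The day 2 libraries lay above both untreated libraries, but the log2 fold change of 0.34 at day 2 did not pass the test (SE 0.09, edgeR adjusted p = 0.056). It was 1.30 at day 4 (SE 0.09, edgeR adjusted p = 5.29e-07) and 2.09 at day 6 (SE 0.09, edgeR adjusted p = 6.54e-09), the last a 4.27-fold rise. The steps were 0.96 at day 4 over day 2 (edgeR adjusted p = 8.73e-06) and 0.80 at day 6 over day 4 (edgeR adjusted p = 0.00011).

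Rac2, the GTPase that switches the assembled oxidase on (gene 19354, chromosome 15, 78559169 to 78572783), stood at 942 and 839 CPM in untreated cells. It reached 1043 and 1069 CPM at day 2, 1438 and 1569.8 CPM at day 4 and 2273 and 2397 CPM at day 6, again without overlap between groups. At day 2 the log2 fold change of 0.25 did not pass (SE 0.09, edgeR adjusted p = 0.147), whereas Rac2 rose by 0.76 at day 4 (SE 0.09, edgeR adjusted p = 4.34e-05) and by 1.39 at day 6 (SE 0.09, edgeR adjusted p = 1.63e-07), a 2.62-fold rise. Its step at day 6 over day 4, 0.63 (edgeR adjusted p = 0.000513), was larger in estimate than that at day 4 over day 2, 0.51 (edgeR adjusted p = 0.00107), but the difference between the steps was not tested. Rac2 and Rac1 are close relatives in sequence, and no source used here says how reads that match both were counted.

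**Figure D1:**
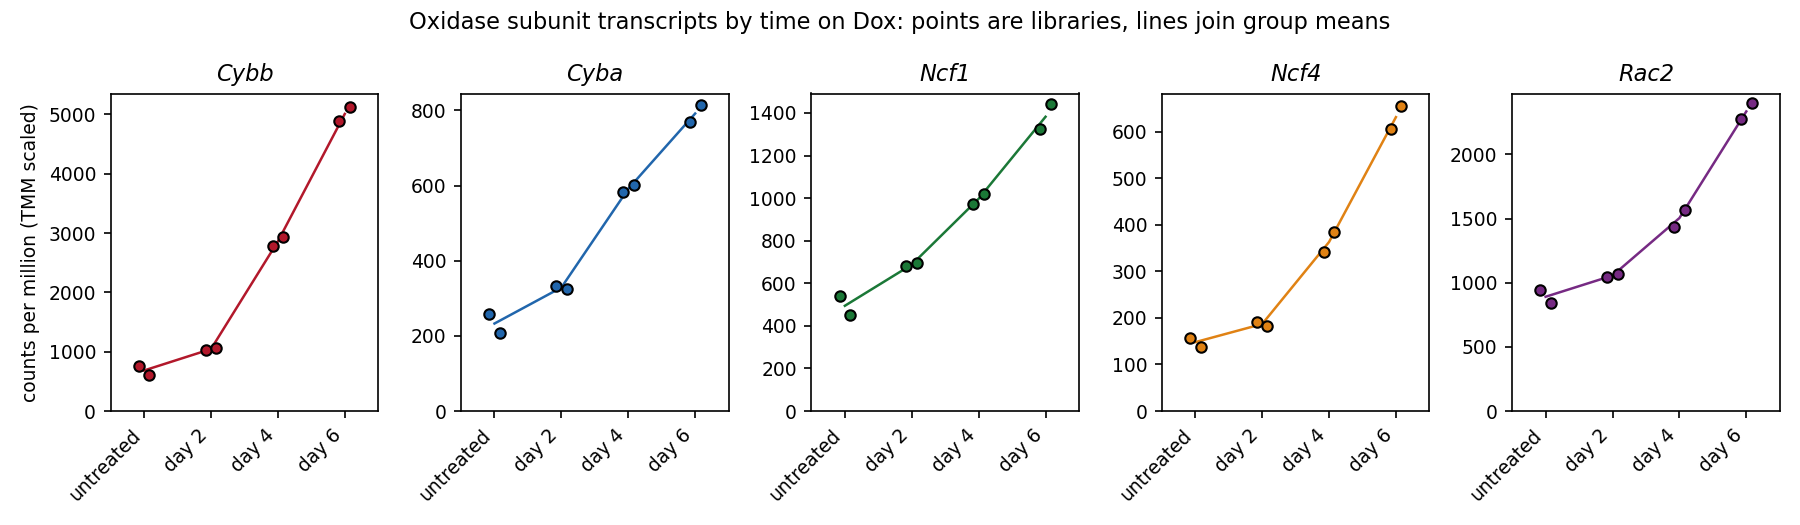
TMM-scaled CPM (y axis, from 0, a separate scale for each gene) of the 5 subunit genes in untreated cells and at days 2, 4 and 6 of Dox; each point is 1 library (n = 2 a group) and lines join the group means. Each of the 5 genes stood in order of time with no overlap between groups, and Cybb reached 4890.5 and 5128 CPM at day 6. The share of all genes in such an order was not counted.

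Counting calls, 3 of 5 genes (Cybb, Cyba and Ncf1) rose at day 2, and all 5 rose at days 4 and 6 against untreated cells and in both successive steps. Among all genes, 37.6% were called at day 4 over day 2 (21.7% higher and 15.9% lower) and 29.9% at day 6 over day 4 (15.9% higher and 14% lower). The median log2 fold change of the 5 was 0.48 at day 2, 1.30 at day 4 and 1.77 at day 6, beside 0.00, -0.02 and -0.04 over all genes tested. The day 2 calls were the least firm. None of the 5 was called when only day 2 and untreated libraries were fitted or when libraries were scaled by totals, 1 (Cybb) without untreated replicate 2, and all 5 without untreated replicate 1 or with DESeq2. Scaled by library totals, the day 6 log2 fold changes were 2.44 for Cybb, 1.66 for Ncf4, 1.33 for Cyba, 1.05 for Ncf1 and 0.96 for Rac2. The median of all genes was then -0.47. Set against that median, the values in the same order were 2.91, 2.13, 1.81, 1.52 and 1.43. That step largely takes the change of scaling out again, so it is no separate check.

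The size of the rise differed between subunits. At day 6 over untreated, the log2 ratio over the 4 pairs of a day 6 and an untreated library ran between 2.70 and 3.06 for Cybb, 1.94 and 2.25 for Ncf4, 1.57 and 1.98 for Cyba, 1.29 and 1.68 for Ncf1 and 1.27 and 1.51 for Rac2. Cybb thus stood above every other subunit, and Ncf4 above Ncf1 and Rac2. Of the 10 pairs of subunits 7 were separated by these ranges. The share separated in this way among other gene pairs was not counted. Ncf4 with Cyba, Cyba with Ncf1 and Ncf1 with Rac2, the neighbours below Cybb in the order, were not separated. These ranges include the shift that all 5 genes share between the untreated libraries. Within libraries, where that shift cancels, the log2 ratio of the same neighbours was apart between day 6 and untreated cells, by 0.24 to 0.40 in favour of Ncf4 over Cyba, 0.24 to 0.34 for Cyba over Ncf1 and 0.02 to 0.17 for Ncf1 over Rac2. At day 6 the groups were likewise apart in 97.2% of the within-library ratios of a subunit to any other tested gene. Being apart is thus nothing particular to these neighbours. At day 4 the order was Cybb, Cyba, Ncf4, Ncf1 and Rac2, with 6 of 10 pairs separated. At day 2 it was Cybb, Cyba, Ncf1, Ncf4 and Rac2, with only Cybb and Rac2 separated. With 2 libraries against 2, an exact permutation test of a single value cannot go below p = 0.333 (two-sided), so the order between subunits is given as a description.

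**Figure D2:**
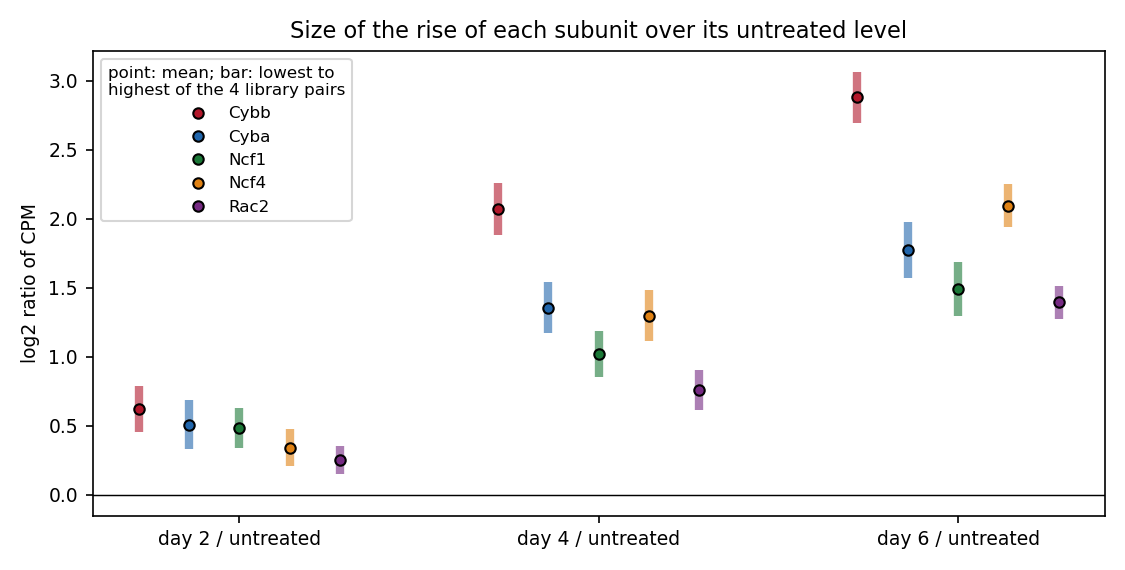
Log2 ratio of CPM over untreated cells (y axis) for the 5 subunits at days 2, 4 and 6; points are means and bars run between the lowest and highest of the 4 library pairs. Cybb (2.70 to 3.06) lies above the other 4 at day 6, while at day 2 only the bars of Cybb and Rac2 are apart.

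The pace in CPM also varied between subunits. Of the gain in mean CPM seen by day 6, Cybb had made 8.34% by day 2 and 50.3% by day 4, Cyba 17.2% and 64.1%, and Ncf1 21.8% and 56.6%. The shares for Ncf4 were 8.05% at day 2 and 44.5% at day 4, and those for Rac2 11.4% and 42.5%. In CPM, Cyba and Ncf1 thus had the larger part of their gain behind them at day 4, and Ncf4 and Rac2 had the larger part still to come. On the log2 scale this contrast was absent. Ncf4 rose by 1.30 up to day 4 and by 0.80 from day 4 to day 6, and Rac2 by 0.76 and 0.63. Spi1, which is restored in the model, had made 2.15% of its own CPM gain at day 2 and 41.4% at day 4. At an equal share of the log2 rise, a gene with a larger fold has a smaller CPM share. The CPM shares therefore do not time 1 gene against another. They come from group means and carry no test.

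Compared per kilobase of the deposited gene length, the balance of the 2 membrane chains changed. The within-library ratio of Cybb to Cyba was 0.465 and 0.473 in untreated cells, 0.495 and 0.520 at day 2, 0.763 and 0.781 at day 4 and 1.02 and 1.01 at day 6. Cybb therefore stood below Cyba in each untreated, day 2 and day 4 library and about level with it at day 6. Mean levels were 1054 CPM per kilobase for Cybb and 1043 for Cyba at day 6, against 144 and 307 in untreated cells. This ratio does not depend on how libraries are scaled, but its absolute value depends on the deposited lengths, 4752 bases for Cybb and 759 for Cyba.

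The cytosolic subunits moved otherwise relative to Cyba. Ncf1 per kilobase was 0.593 ± 0.0168 of Cyba without Dox (SD, n = 2). At day 2 it was 0.583 ± 0.0160, and it was lower at day 4 (0.470 ± 0.00436) and day 6 (0.487 ± 0.00976). For Ncf4 the ratio was 0.333 ± 0.0214, 0.296 ± 0.00638, 0.320 ± 0.0207 and 0.416 ± 0.00615 over the same series, so that only the day 6 libraries lay above the untreated ones. Rac2 was 0.962 ± 0.0747 of Cyba without Dox, and its ratio was 0.803 ± 0.0267 after 2 days, 0.635 ± 0.0251 after 4 days and 0.737 ± 0.00257 after 6 days. Of the 10 pairs of subunits, the within-library ratio did not overlap between groups in 9 at day 2, 9 at day 4 and 10 at day 6 against untreated cells, and in 9 at each successive step. The same held for 79.2%, 95.3% and 97.2% of the ratios of a subunit to any other tested gene at days 2, 4 and 6, and for 92.3% and 91% in the steps to day 4 and day 6, so these counts say nothing particular about the oxidase. These ratios were added after the values had been seen.

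**Figure D3:**
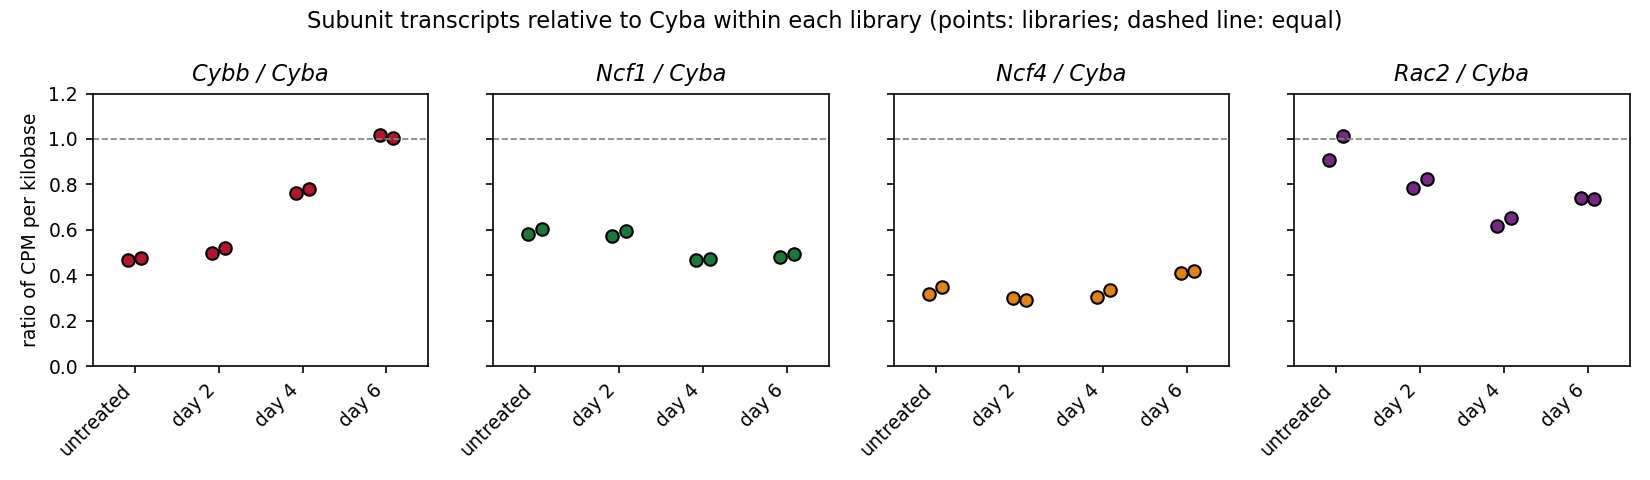
Ratio of CPM per kilobase of each subunit to Cyba within the same library (y axis), by day; each point is 1 library (n = 2 a group) and the dashed line marks equal levels. Cybb stands at 0.465 and 0.473 in untreated cells and at 1.02 and 1.01 at day 6, while Ncf1 and Rac2 are lower relative to Cyba at day 6 than in untreated cells.

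In rank, the subunits became some of the more abundant transcripts. By CPM per kilobase among 12330 genes, Cybb ranked 50 at day 6 against 392 in untreated cells, Cyba 52 against 144, Rac2 72 against 154, Ncf1 126 against 280 and Ncf4 147 against 619. The rises were not among the largest in the data. At day 6 over untreated, 3.75% of genes had a higher log2 fold change than Cybb, 5.82% than Ncf4, 7.33% than Cyba, 9.08% than Ncf1 and 9.79% than Rac2.

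Genes of proteins that work with the oxidase did not all move one way. Of 4 such partner genes none was called at day 2 (edgeR quasi-likelihood test, also none at an unadjusted p under 0.05, with DESeq2 or with limma voom), 3 rose and 1 fell at day 4, and 3 rose at day 6. Among all genes 26.1% were higher and 22% lower at day 4, and 32% and 31.6% at day 6. Cybc1, a chaperone needed for gp91phox and p22phox protein, Rac1, the widely expressed Rac, and Rap1a, a GTPase that copurifies with the flavocytochrome, rose by 0.76, 0.87 and 0.76 on the log2 scale at day 6. Hvcn1, the proton channel that balances the charge moved by the oxidase, stood at 238 and 199.98 CPM in untreated cells, 212 and 179.96 CPM at day 2, 122 and 144 CPM at day 4 and 230.2 and 251 CPM at day 6. Both day 4 libraries lay below all others, and Hvcn1 fell at day 4 by the test (-0.72 over untreated, edgeR adjusted p = 0.000323). The day 6 value of 0.14 did not pass (edgeR adjusted p = 0.309). Under scaling by library totals the day 6 value was -0.30 (edgeR adjusted p = 0.0484).

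Transcription factors known at oxidase gene promoters moved in both directions. Of 11 such genes tested 7 rose and 4 fell at day 6, beside 32% and 31.6% of all genes. At day 4, 6 rose and 4 fell, beside 26.1% and 22%. At day 2 only Cebpa, the C/EBP factor of granulocyte commitment, was called, and it fell (log2 fold change -0.43, edgeR adjusted p = 0.0127). Spi1 was at 217 and 229 CPM at day 6 against 8.34 and 12.9 CPM in untreated cells (log2 fold change 4.39, edgeR adjusted p = 8.84e-10). Irf8, a partner of PU.1 on composite ETS and IRF sites, fell at day 6 (-1.24, edgeR adjusted p = 3.56e-06), while Irf1 and Irf2 rose by 1.15 and 0.99 on the log2 scale. Cebpa, Gfi1 and Runx1 fell at day 6, with log2 fold changes of -1.05, -0.95 and -0.69. Cebpb, Cebpd, Cebpe and Elf1 rose by 0.50, 0.72, 0.66 and 0.26 at day 6, but none of the 4 was called under scaling by library totals, where Elf1 stood at -0.18. The 4 that fell at day 4 were Gfi1 (-1.10), Cebpa (-0.85), Cebpe (-0.45, edgeR adjusted p = 0.0341) and Runx1 (-0.28), so Cebpe was called lower at day 4 and higher at day 6. Hoxa9 and Hoxa10, also on this list, were not analysed here.

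**Figure D4:**
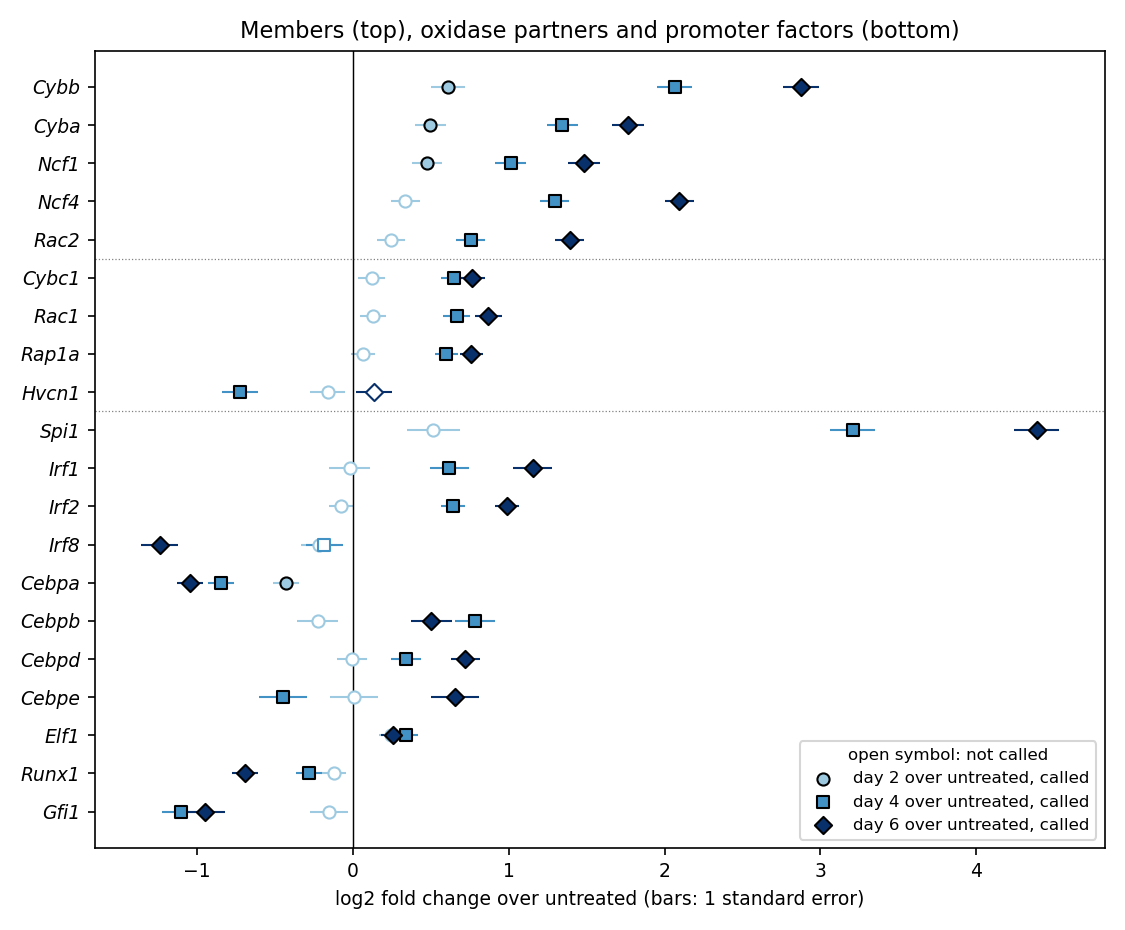
Log2 fold change over untreated cells (x axis, bars of 1 standard error) at days 2, 4 and 6 for the 5 subunits, 4 partner genes and 11 promoter factors; filled symbols were called (edgeR adjusted p under 0.05) and open symbols were not. All subunits lie right of 0 at each day, the called value of Hvcn1 at day 4 lies left of 0, and Irf8, Cebpa, Runx1 and Gfi1 lie left of 0 at day 6.

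Genes tied to oxidase activation gave 23 of 27 up and 1 down (Prkca) at day 6, and 14 up and 2 down under scaling by library totals. Their median log2 fold change at day 6 was 0.77 beside -0.04 over all genes, of which 32% were called higher and 31.6% lower. The list is not one of activators alone, since Arhgdia, Arhgdib, Arhgap15 and Bcr encode proteins that restrain Rac. Of these Arhgdia and Arhgap15 were among the day 6 rises (0.44 and 0.67), while Bcr was not called (0.08, edgeR adjusted p = 0.452). Under scaling by library totals neither rise was called (0.007 and 0.24, edgeR adjusted p = 0.967 and 0.11). Bcr was called lower under it (-0.35, edgeR adjusted p = 0.0354). The formyl peptide receptor gene Fpr1, the high-affinity Fc receptor gene Fcgr1 and S100a9, part of calprotectin, led the list with log2 fold changes of 6.63, 5.16 and 5.02. At day 2, 5 of the 27 rose, beside 4.18% of all genes. They were the Rac exchange factor genes Prex1 and Dock2, Arhgdib, the kinase gene Syk and the lipid kinase subunit gene Pik3cd, named after their values were seen. Without day 2 replicate 1 the count at day 2 was 2, and under scaling by library totals none rose and 1 fell.

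Genes of NADPH supply, which do not all encode NADPH producers, gave 8 of 11 up and none down at day 6 (median log2 fold change 0.58). Under scaling by library totals 3 were up and 2 down. The NAD kinase gene Nadk, the pentose phosphate gene Taldo1 and the malic enzyme gene Me2 rose by 1.48, 1.30 and 1.27. Of the genes whose enzymes make NADPH, G6pdx, the first of the pentose phosphate pathway, and Idh1 rose by 0.63 and 0.68. Under scaling by library totals neither was called (0.19 and 0.25, edgeR adjusted p = 0.22 and 0.0953). Pgd (0.21, edgeR adjusted p = 0.117) and Me1 (-0.31, edgeR adjusted p = 0.312) were not called. Haem synthesis and breakdown genes, listed because the flavocytochrome carries haem, gave 3 of 11 up and 5 down (median -0.14), or 3 up and 8 down under library totals. Of these Hmox1, which breaks haem down, rose most (2.72), Ppox rose (1.21) and Uros fell (-1.05). Superoxide and peroxide handling genes gave 4 of 19 up and 7 down (median -0.12), or 3 up and 13 down under library totals, with Prdx5 and Gpx1 up by 1.35 and 1.15 and Gclm at -0.997. Among all genes 32% were called higher and 31.6% lower at day 6. The haem and the superoxide and peroxide counts are not far from these shares.

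Markers of maturation also changed with time on Dox. Summed over 10 neutrophil genes the level was 61836 to 75914 CPM at day 6 against 2817 to 4232 CPM in untreated cells, led by Ltf, Ly6g and Mmp9, and all 10 rose. The 10 monocyte and macrophage genes summed to 10139 to 10502 CPM at day 6 against 4981 to 5494.5 CPM, and all 10 rose, led by Ms4a7, Fcgr1 and Ccr2. At day 2, 6 of these 10 rose, beside 1 of the 10 neutrophil genes, with sums of 6800 to 7565 CPM and 4506 to 7436 CPM. At day 4 the monocyte and macrophage sum was 11564 to 12186 CPM, above that of day 6. In the step to day 6 over day 4, 3 of these 10 genes rose and 1 fell, beside 15.9% and 14% of all genes. Their median log2 fold change in that step was 0.23, so the lower sum does not stand for most of them. All 5 subunits rose in the same step. The neutrophil sum was 11518 to 17140 CPM at day 4, and all 10 of its genes rose in that step. Of 9 blast and progenitor genes 6 fell and none rose at day 6, led by Ctsg, Myb and Myc, with a sum of 5128 to 5285 CPM against 15460 to 17068 CPM. That sum was 18211 to 18995 CPM at day 2 and 10410 to 10992 CPM at day 4. Among all genes 4.18% were called higher at day 2, and 32% were called higher and 31.6% lower at day 6. The part of such marker shifts in the subunits' rise was not tested.

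Most markers of other cells were low, but the sums held by Nkg7 and by Pecam1 were about the level of Ncf4 at day 2. The 10 B cell genes summed to 39.6 to 52.7 CPM at day 6 against 41.8 to 86.4 CPM in untreated cells, and to 17.4 and 139.7 CPM in the day 2 libraries, where replicate 1 was high. Igll1 alone of these 10 fell at day 6 (-1.55). The 5 of 10 erythroid genes tested summed to 37.6 to 51.1 CPM at day 6 against 5.45 to 12.2 CPM in untreated cells, with 4 of 5 higher, led by Slc4a1, Hbb-bs and Hbb-b1. Mast cell and eosinophil genes (6 of 7) summed to 26.7 to 30.1 CPM against 67.7 to 76.9 CPM, with Mcpt8 lower and Prss34 higher. Megakaryocyte genes (4 of 7, Vwf lower, Gp9 and Itga2b higher) summed to 46.8 to 47.1 CPM against 48.5 to 59.3 CPM, T and NK cell genes (2 of 10, nearly all from Nkg7) to 93.7 to 105.6 CPM against 112 to 132 CPM (187 to 215 CPM at day 2), and stroma and endothelium genes (3 of 8, Cxcl12 lower, nearly all from Pecam1) to 132 to 137 CPM against 109.6 to 124 CPM (148 to 192 CPM at day 2). Their part in the result was not tested. Without day 2 replicate 1 the day 2 calls of Cybb, Cyba and Ncf1 were kept.

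The genes most like each subunit were those with the smallest root mean square difference of log2 CPM, centred on untreated cells, over the 6 Dox libraries, among 9154 candidates. For Cybb they were Gsap (0.12), Cmpk2 (0.16) and Pde7b (0.16). Those of Cyba were Ptpn9 (0.05), Pqlc3 (0.06) and Rab32 (0.08), and those of Ncf1 were Parvg (0.04), Atp6v0c (0.06) and Ptpn6 (0.07). Ncf4 was closest to Parp14 (0.07), Pstpip1 (0.11) and Arhgap4 (0.11), and Rac2 to Rala (0.08), Gnai2 (0.08) and Inpp5j (0.09). Among the subunits themselves the closest were Ncf1 and Rac2 (0.21) and Cyba and Ncf4 (0.22), and the farthest were Cybb and Rac2 (1.17). No subunit was among the 3 nearest genes of another.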

How the data were processed

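Per the file headers, each deposited table holds a whole-number count and a gene length in bases (an other deposited column) for each Entrez gene ID. Tools named by the submitters' processing notes were featureCounts, CASAVA 1.8.2, limma 3.22.0 and edgeR 3.8.2 with build mm10; no source used here gives the aligner, strandedness or settings. Symbols and coordinates came from RefSeq GRCm38.p6, which matched 12555 of 12830 IDs. All 8 libraries entered 1 fit in R 4.3.3 with edgeR 4.0.16: filterByExpr (500 genes removed), TMM scaling, a group means model without covariates, glmQLFit and glmQLFTest, adjustment over 12330 genes. Residual and prior degrees of freedom were 4 and 7.08, and the biological coefficient of variation 8.34%. SE was derived from the fold change and F. The script was checked on simulated counts. Totals were 9262047 to 11213292 counts; at 1645 to 47451 counts per subunit and library, counting error is a few percent or less. Same-group libraries differed by more than sampling noise, so none was taken as a copy. The day 2 pair differed most, with a median chi-square over genes of 5.14. It was 1.69 in untreated cells, 1.12 at day 4 and 0.70 at day 6, beside 0.45 for sampling alone. Replicate numbers did not pair the libraries.

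The genes, lists and rules were chosen with earlier results of these data known. Named genes are the subunits, the partner and promoter factor genes, up to 3 called genes of each other list by size at day 6, and 3 likest genes a subunit (average logCPM of at least 3); 1 list and some selected genes are not reported here. Alternatives were RLE factors, library totals, no filter, DESeq2 1.42.0, limma voom (limma 3.58.1), fits of 2 groups, a replicate block and leaving out each library.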

Additional observations from a re-analysis of the deposited data

How the results depend on the processing

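No fold change of the 5 subunits in the 5 comparisons changed direction under the alternatives run. The calls at day 4 and day 6 against untreated and at day 4 over day 2 were kept under all of them. The library totals scaling left 0 subunits called at day 2 (Cybb 0.43, Cyba 0.32, Ncf1 0.30; edgeR adjusted p = 0.0794, 0.158 and 0.2) and 3 at day 6 over day 4, where Cyba was at 0.24 and Ncf1 at 0.29. Under it, the subunit pairs separated in the main order were 0 at day 2, 8 at day 4, 8 at day 6 and 7 at day 6 over day 4. A fit of day 2 and untreated libraries alone called 232 genes and 0 subunits (Cybb 0.60, Cyba 0.49, Ncf1 0.47). DESeq2 called 5 at day 2, adding Ncf4 (0.34, adjusted p = 0.0142) and Rac2 (0.25, adjusted p = 0.0363). Leaving out 1 library at a time gave 325 to 1325 genes at day 2 (756 with all libraries; fewest without untreated replicate 2, most without untreated replicate 1) and 1726 to 4193 at day 6 over day 4 (3689 with all; 1726 without day 6 replicate 2, 1731 without day 4 replicate 1, 2132 without day 6 replicate 1). The subunits called were 1 to 5 at day 2 and 3 to 5 at day 6 over day 4. At day 2 the log2 fold change ranged over 0.34 to 0.67 for Cyba, 0.35 to 0.62 for Ncf1, 0.24 to 0.44 for Ncf4 and 0.16 to 0.33 for Rac2. At day 6 over day 4 it ranged over 0.39 to 0.47 for Cyba and 0.42 to 0.54 for Ncf1. Without day 2 replicate 2 Ncf1 was not called at day 2 (0.47, edgeR adjusted p = 0.0598) and 397 genes were called. The replicate numbers did not pair the libraries (correlations of deviations from group means between -0.13 and 0.21), and a replicate block kept all subunit calls, with Cybb at 0.61 at day 2 (edgeR adjusted p = 0.0168) and 2.87 at day 6. Each subunit had at least 1645 counts in each library, which limits counting error but leaves it about as large as the gap between the day 2 libraries for Cyba and Ncf1.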

Other observations

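Ncf4 and Rac2 lie on chromosome 15 with 296586 bases between them, and RefSeq (GRCm38.p6) annotates 16 genes there, of which 6 were tested. The genes were looked at after the subunits' values had been seen. The cytokine receptor gene Csf2rb2 stood at 129 ± 1.11 CPM at day 6 against 12.8 ± 0.340 CPM in untreated cells (SD, n = 2; log2 fold change 3.34, edgeR adjusted p = 3.88e-07). Csf2rb, its close relative, stood at 704 ± 20.2 CPM against 346 ± 36.9 CPM (1.03, edgeR adjusted p = 1.28e-05), and reads may be shared between these similar genes. Tst, a mitochondrial sulfurtransferase gene, also rose (0.60, edgeR adjusted p = 0.00152). C1qtnf6 and Kctd17 fell, with log2 fold changes of -3.37 (edgeR adjusted p = 4.2e-06) and -1.24 (edgeR adjusted p = 0.00881), while Mpst, the neighbour and relative of Tst, was at -0.11 (edgeR adjusted p = 0.279). Of the 6 genes tested 3 were called higher and 2 lower at day 6, beside 32% and 31.6% of all genes. These calls say nothing particular about the interval.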
